A study of Mus musculus with 3 samples.

Results

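The small leucine-rich proteoglycans (SLRPs) were followed through the non-cardiomyocytes (non-CMs) of the pressure-overloaded mouse heart. The 9 genes Dcn, Lum, Bgn, Fmod, Prelp, Ogn, Aspn, Podn and Chad were taken by name from the 27998 genes counted, and all 9 were detected in the healthy heart. They were measured by cell class and phase, and between subsets of fibroblasts (FBs).

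SLRPs are secreted matrix proteins built around a curved stack of leucine-rich repeats, and most carry chondroitin, dermatan or keratan sulfate chains. They bind collagen and set the diameter and spacing of its fibrils, and several also bind growth factors of the TGF-β family or receptors on nearby cells. In the heart, FBs are known as their main source, and scar and interstitial matrix hold large amounts of them.

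Wild-type C57BL/6JJcl mice underwent transverse aortic constriction (TAC), and ventricular non-CMs were freed with collagenase, enriched on Percoll and profiled by droplet-based scRNA-seq of transcript 3' ends. The phases were the healthy heart (TAC 0 weeks, labelled as control), adaptive hypertrophy (TAC 2 weeks) and heart failure (TAC 12 weeks). The methods give male mice 8 weeks old at surgery, the number of hearts in a library is not given in the sources used here, and all groups share the genotype, strain and preparation. Each phase is 1 library, and mice of the later phases were older when taken, by the weeks since surgery. Phase, library and age thus cannot be told apart, and phases are compared without a test.

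The libraries held 3892, 2231 and 792 cells with at least 200 genes and 12287823, 4465929 and 1712728 unique molecular identifiers (UMIs) at 0, 2 and 12 weeks. Cells were assigned to a class by the UMIs of short marker lists: 1212, 92 and 181 FBs, 1134, 1736 and 303 endothelial cells (ECs), 430, 73 and 40 mural cells (smooth muscle cells and pericytes), and 917, 179 and 150 blood cells. FBs made up 31.1% of cells in the healthy library, 4.12% at 2 weeks and 22.9% at 12 weeks. The median FB had 2981, 1833 and 2543 UMIs, of which 2.62%, 7.23% and 4.25% were mitochondrial. Per 1000000 UMIs of a class (CPM), the 6 FB markers summed to 6362, 10817 and 5645 in FBs, and the 7 cardiomyocyte markers to 49.0, 38.8 and 19.5. The libraries shared 5, 1 and 3 cell barcodes between pairs.

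The SLRP genes lie in a few short clusters of the mouse genome (GRCm38). Dcn (chromosome 10, 97479609 to 97518143, plus strand) and Lum (chromosome 10, 97565128 to 97572703, plus strand) are 47.0 kb apart. Aspn (chromosome 13, 49544443 to 49567565, plus strand) and Ogn (chromosome 13, 49608046 to 49624501, plus strand) are 40.5 kb apart with Omd between them. Prelp (chromosome 1, 133910304 to 133921414, minus strand) and Fmod (chromosome 1, 134037254 to 134048277, plus strand) are 116 kb apart on opposite strands, with 0 protein-coding genes between them. Bgn (chromosome X, 73483602 to 73495933, plus strand), Podn (chromosome 4, 108014791 to 108096445, minus strand) and Chad (chromosome 11, 94565047 to 94569127, plus strand) stand alone. Podn overlaps Scp2 on the same strand, so its UMIs are uncertain, and Chad overlaps Acsf2, Prelp overlaps Gm15851, and Ogn and Aspn overlap Cenpp on the opposite strand.

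Fmod, Prelp and Chad were the members with the largest excess in the Wif1+Comp FB subset described below, and their promoters are shown for that reason. RefSeq promoters (250 bases before to 50 after the start site, GRCm38.p6) were matched for 7 of the 9 members. The windows are chr1:134037004-134037303 on the plus strand for Fmod, chr1:133921352-133921651 on the minus strand for Prelp, and chr11:94564797-94565096 on the plus strand for Chad. Capitals mark the motifs TATAAA and GGGCGG.
Fmod: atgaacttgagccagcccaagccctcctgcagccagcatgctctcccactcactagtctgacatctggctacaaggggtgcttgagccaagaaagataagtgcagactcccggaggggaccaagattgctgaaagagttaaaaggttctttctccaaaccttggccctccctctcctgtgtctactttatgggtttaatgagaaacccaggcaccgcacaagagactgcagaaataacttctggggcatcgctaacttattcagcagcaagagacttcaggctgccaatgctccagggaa
Prelp: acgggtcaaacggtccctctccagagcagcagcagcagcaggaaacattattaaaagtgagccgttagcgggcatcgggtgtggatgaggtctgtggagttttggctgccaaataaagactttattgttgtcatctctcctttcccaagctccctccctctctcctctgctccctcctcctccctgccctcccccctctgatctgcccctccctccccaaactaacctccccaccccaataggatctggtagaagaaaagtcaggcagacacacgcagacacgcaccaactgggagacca
Chad: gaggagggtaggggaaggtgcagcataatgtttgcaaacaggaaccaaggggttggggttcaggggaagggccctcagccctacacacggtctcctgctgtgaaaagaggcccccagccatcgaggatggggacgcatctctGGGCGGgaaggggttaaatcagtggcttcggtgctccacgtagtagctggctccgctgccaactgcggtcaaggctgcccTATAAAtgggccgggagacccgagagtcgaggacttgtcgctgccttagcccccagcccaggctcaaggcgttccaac
Both strands were searched for 4 motifs, the TATA box as TATAAA, the Sp1 motif as GGGCGG, the AP-1 motif as TGANTCA and the TEAD motif as GGAATG, and no match overlapped another in these windows. The Chad window held TATAAA with its first base at position -28 from the start site and GGGCGG at -108, and the Fmod and Prelp windows held none of the 4. Of 32851 mouse promoters of this length, 13.6% held the TATA box, 35.7% the Sp1 motif, 7.81% the AP-1 motif and 14.7% the TEAD motif, and a match describes only these letters.

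FBs held most SLRP UMIs in each phase. Of all UMIs of a member, summed over the 3 libraries, from 80.7% (Aspn) to 95.6% (Fmod) were in FBs. These sums came mostly from healthy cells, as for Dcn with 61109 of 73745 UMIs. Aspn had the lowest FB share in every phase, 81.0%, 67.7% and 83.8% at 0, 2 and 12 weeks. Bgn (73.8%) and Prelp (78.7%) were also under the pooled range at 2 weeks, and the remaining members had at least 83.8% then. The 9 genes together made up 2.19%, 1.93% and 2.39% of all FB UMIs at 0, 2 and 12 weeks. Levels below are CPM of the UMIs pooled over the cells of a class in a library, with 95% exact Poisson intervals in brackets, which cover counting error only. UMIs were not scaled to transcript length, and levels are compared within a gene and not between genes.

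Dcn, decorin, the best-known collagen-binding SLRP, which also binds TGF-β, was at 14319 [14202 to 14437], 9348 [8978 to 9728] and 15667 [15355 to 15983] CPM in FBs at 0, 2 and 12 weeks. In ECs its level was 463, 27.7 and 287 CPM, in blood cells 170.0, 25.1 and 244 CPM, and in mural cells its intervals were 179 to 223, 2.53 to 35.9 and 151 to 325 CPM. FBs were far above each other class in every library. The 3 other classes lay close to each other at 2 and 12 weeks, while in the healthy library ECs stood above mural and blood cells. Lum, lumican, a keratan sulfate SLRP of collagen fibrils, was at 1975 [1932 to 2019], 2450.3 [2263 to 2649] and 2227 [2111 to 2349] CPM in FBs and at most 87.8 CPM in ECs, mural and blood cells. Bgn, biglycan, the close relative of decorin that can act on Toll-like receptors when released from matrix, was at 3393 [3336 to 3451], 5819.5 [5529 to 6122] and 4229 [4068 to 4395] CPM in FBs. Outside FBs Bgn was at 396, 409.6 and 289 CPM in mural cells, 210.2, 103 and 309 CPM in ECs and 38.3, 10.0 and 158 CPM in blood cells. Its mural level was the highest of these 3 classes at 0 and 2 weeks, while at 12 weeks ECs (262 to 363) and mural cells (203 to 398) overlapped in their intervals.

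Among the members with lower counts, Prelp, a basic SLRP that links basement membrane to collagen, was at 644, 632 and 558 CPM in FBs and at most 45.7 CPM in ECs, mural and blood cells. Ogn, osteoglycin, was at 535, 380.0 and 408 CPM in FBs and 50.9, 8.19 and 39.0 CPM in mural cells. Aspn, asporin, which has an aspartate-rich end in place of a sugar chain and binds TGF-β, was at 738, 519.5 and 645 CPM in FBs and 331, 213 and 382 CPM in mural cells. Mural Aspn thus stood within a few fold of the FB level, whereas ECs (13.9, 1.79 and 16.6 CPM) and blood cells (at most 8.61 CPM) did not. Fmod, fibromodulin, which guides collagen cross-linking, was at 148, 136 and 69.9 CPM in FBs and at most 7.80 CPM in those 3 classes. Podn, podocan, was at 76.8, 34.9 and 45.5 CPM in FBs. Chad, chondroadherin, a cartilage SLRP that binds collagen and integrins, had 186, 4 and 2 UMIs in FBs, or 46.7, 15.5 and 3.25 CPM.

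**Figure D1:**
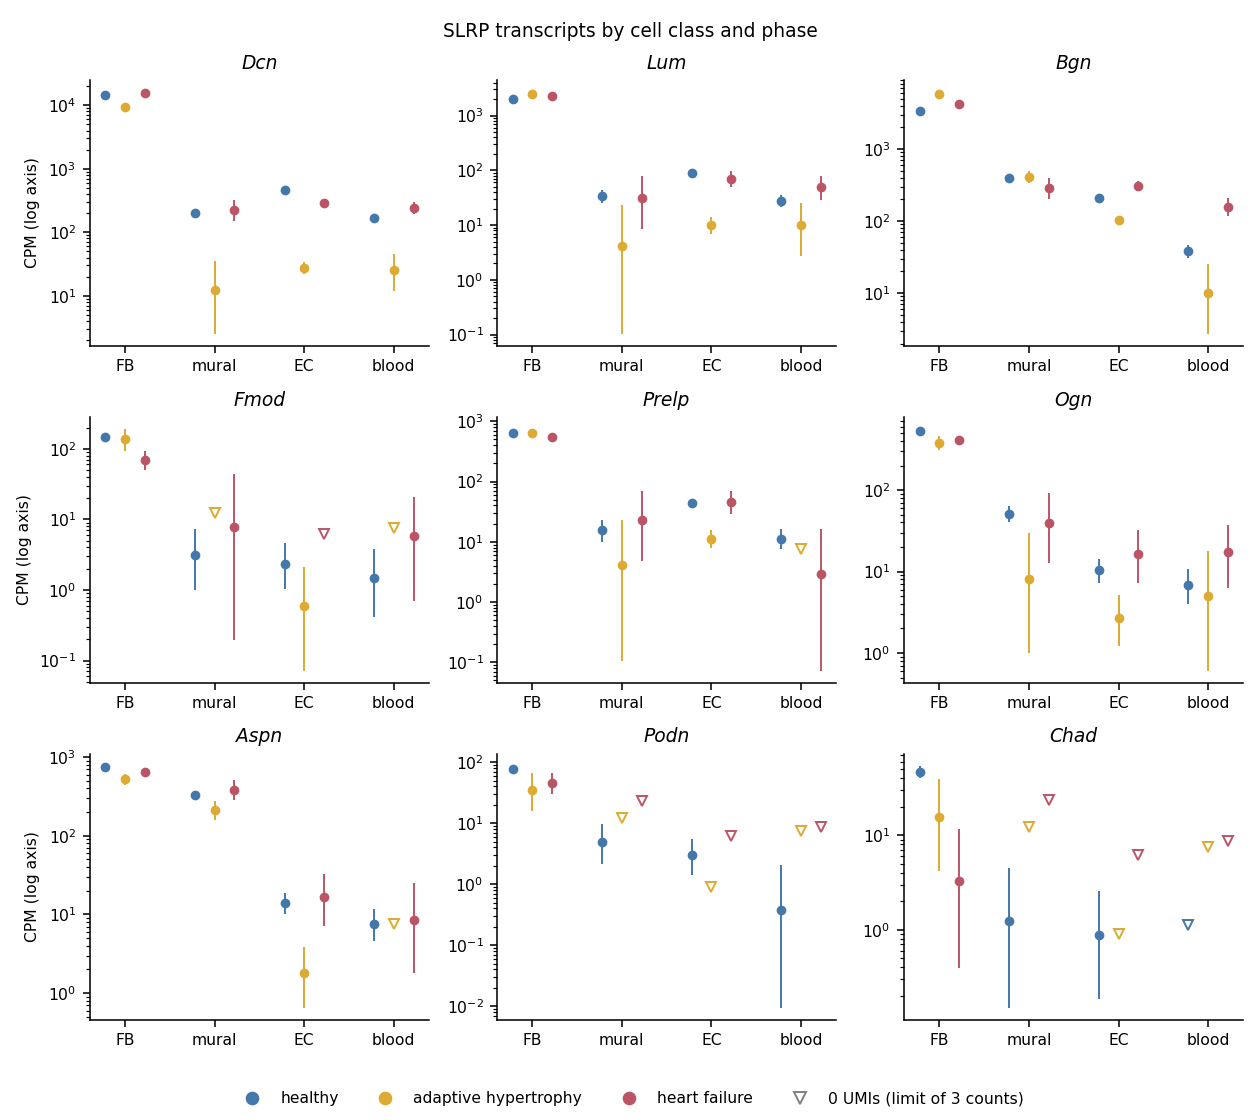
Level of each SLRP (CPM, log axis) in FBs, ECs, mural and blood cells at each phase, with 95% exact Poisson intervals; triangles are the limit of 3 counts for 0 UMIs. FBs lie above the other classes for every member in the healthy library, and Aspn in mural cells (331, 213 and 382 CPM) comes closest to FBs (738, 519.5 and 645 CPM).

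The question of which class expresses SLRPs was tested over the 3 libraries, since each library gives every class. UMIs were summed per library and class and compared with edgeR's quasi-likelihood test, with the library as a block and Benjamini-Hochberg adjustment over 7427 genes. Of the 9 members 8 passed the filter on low counts, and Chad did not. Fmod and Podn passed it only through FB sums, with at most 7.80 and 4.97 CPM in ECs, mural and blood cells. The higher calls of Fmod and Podn in FBs were thus all but fixed by the filter. Prelp, at most 45.7 CPM in ECs, mural and blood cells, also needed FB sums to pass. Its higher calls in FBs were thus not independent of the filter. All 8 tested were higher in FBs than in ECs, where 19.8% of all genes tested were higher and 18.5% lower, than in mural cells (15.3% higher and 18.0% lower) and than in blood cells (25.3% higher and 21.9% lower). The median log2 fold change of the members tested was 5.83 against ECs, 4.84 against mural cells and 6.21 against blood cells, beside -0.03, -0.02 and 0.05 over all genes tested. These sums were separate cell classes of the same 3 suspensions, and the spread is that between libraries of different phases.

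Decorin was higher in FBs than in mural cells by 7.08 ± 0.51 on the log2 scale (SE, n = 3 libraries, edgeR adjusted p = 8.46e-11) and than in ECs by 6.46 ± 0.48 (edgeR adjusted p = 3.90e-11). Asporin differed least between FBs and mural cells, by 1.05 ± 0.31 (edgeR adjusted p = 0.00954), and FBs were higher in each library, by 2.23, 2.44 and 1.69 times. This call was lost with DESeq2 and without the library block, with adjusted p-values from 0.000512 to 0.123 over the 14 alternatives. Podn was higher in FBs than in mural cells by 4.22 ± 0.58 (edgeR adjusted p = 3.53e-06) and lost this call with DESeq2. With 8, 0 and 0 mural UMIs, this Podn call was all but fixed by the filter on low counts and adds no support to the difference. Chad, not tested, was higher in healthy FBs than in ECs by 52.7 times [17.7 to 258] on 186 against 3 UMIs, and than in mural cells by 37.6 times [10.3 to 313] on 186 against 2 UMIs. Healthy blood cells had 0 Chad UMIs, and FBs were at least 41.5-fold higher with 3 counts set in place of the 0 in that library.

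**Figure D2:**
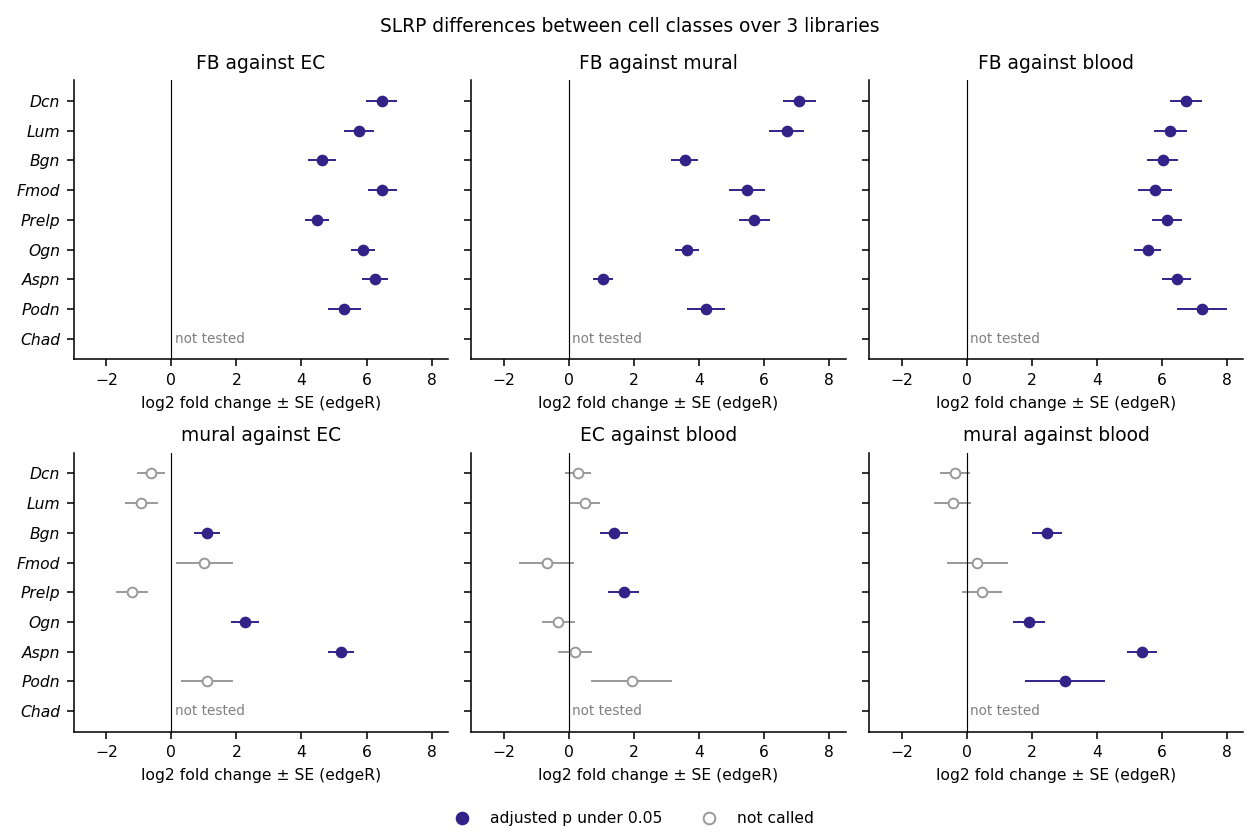
Log2 fold change of each SLRP (horizontal axis, ± SE, edgeR, 3 libraries a class) in the 6 comparisons of FBs, ECs, mural and blood cells, filled where the adjusted p was under 0.05, with Chad not tested. In the upper row all points of FBs lie to the right of 0, with Aspn against mural cells the lowest at 1.05, and in the lower row Aspn of mural cells stands at 5.21 and 5.40.

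Outside FBs, mural cells carried biglycan, osteoglycin and asporin. Mural cells exceeded ECs for 3 of the 8 members tested (15.4% of all genes were higher and 13.4% lower), namely Aspn by 5.21 ± 0.39 (edgeR adjusted p = 1.36e-10), Ogn by 2.25 ± 0.43 (edgeR adjusted p = 0.000240) and Bgn by 1.09 ± 0.40 (edgeR adjusted p = 0.0435). Against blood cells 4 of 8 were higher (26.6% of all genes were higher and 21.6% lower): Aspn by 5.40 ± 0.46 (edgeR adjusted p = 4.44e-10), Bgn by 2.47 ± 0.45 (edgeR adjusted p = 6.35e-05), Ogn by 1.92 ± 0.50 (edgeR adjusted p = 0.00221) and Podn by 3.02 ± 1.22 (edgeR adjusted p = 0.0456). The Podn fold rested on 8, 0 and 0 mural and 1, 0 and 0 blood UMIs. Both Aspn calls held in all 14 alternatives and Bgn against blood cells did too. Ogn lost both calls without the healthy library (lowest log2 fold change 1.46 against ECs and 0.58 against blood cells), and that against blood cells also with cells over 10% mitochondrial UMIs removed (the median mural cell at 2 weeks had 10.2% before this). Podn kept its call in 7 of 13 and lost it without the healthy or the 2-week library, and Bgn against ECs was called in 8 of 14 alternatives and not without the 2-week library. Without the heart failure library 5 members were called against ECs, and without the healthy library 2 against blood cells. Dcn was lower in mural cells than in ECs by 0.62 ± 0.43 (edgeR adjusted p = 0.318), which did not pass, and this sign turned to 1.80 when FBs were defined without matrix genes.

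ECs exceeded blood cells for 2 of 8 members, near the share over all genes (23.9% were higher and 21.3% lower). These were Prelp by 1.68 ± 0.48 (edgeR adjusted p = 0.00560) and Bgn by 1.38 ± 0.43 (edgeR adjusted p = 0.0111). Bgn lost this call without the healthy library, with DESeq2 and without the library block, and Prelp when FBs were defined without matrix genes. The differences of Dcn (0.27 ± 0.41) and Lum (0.48 ± 0.47) between ECs and blood cells did not pass (edgeR adjusted p = 0.646 and 0.436).

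FB transcripts set free during preparation can give UMIs in any droplet, and blood cells should lack these genes. After each cell was thinned to 1000 UMIs, 14.4%, 1.41% and 26.2% of blood cells had a Dcn UMI (36.1%, 5.59% and 41.3% unthinned, median depth 2631, 1631 and 1788 UMIs), against 99.6%, 98.6% and 100% of FBs (99.8%, 95.7% and 98.3% unthinned). The share of ECs with a Dcn UMI was 21.7%, 2.62% and 29.9% (43.9%, 4.21% and 36.3% unthinned, median depth 2245.5, 1518.5 and 1330 UMIs). This EC share was above the blood share in each library after thinning, and unthinned in the healthy library only. Thinning left out 0, 37 and 43 blood cells, 0, 23 and 22 FBs and 0, 437 and 102 ECs. For Aspn the thinned share was 26.7%, 15.3% and 36.7% in mural cells and 1.64%, 0% and 0.935% in blood cells (57.9%, 34.2% and 57.5% against 2.07%, 0% and 2.00% unthinned), and thinning left out 0, 14 and 10 mural cells, whose median depth was 2980.5, 2491 and 2365.5 UMIs. The blood share at 2 weeks, 0 of 179 cells before thinning, allows up to 1.68%. The Aspn share of mural cells was above that of blood cells in every library, which the Dcn share was not at 12 weeks (23.3% against 26.2%).

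The ratio of each member to Dcn was compared with its ratio in FBs of the same library. The part of free RNA in these ratios was not tested. Lum per Dcn UMI was 1.38 [1.21 to 1.56], 1.35 [0.872 to 2.06] and 1.73 [1.15 to 2.55] times the FB ratio in ECs, 1.24, 1.27 and 0.970 times in mural cells, and 1.18, 1.53 and 1.41 times in blood cells. Aspn per Dcn UMI in mural cells was 32.1 [27.8 to 37.2], 312 [98.3 to 1571] and 41.0 [25.1 to 68.0] times the FB ratio. For Lum the intervals held 1 in mural and blood cells in every library and lay above 1 in ECs at 0 and 12 weeks, and for mural Aspn they lay above 1 in each library. Mural Bgn was at 8.36, 53.5 and 4.73 times and mural Ogn at 6.81, 16.4 and 6.62 times the FB ratio, where the 2-week values rest on 3 mural Dcn UMIs. In ECs Bgn was at 1.92 [1.75 to 2.10], 5.96 [4.68 to 7.64] and 4.00 [3.14 to 5.10] times and Prelp at 2.13 [1.78 to 2.53], 6.04 [3.89 to 9.22] and 4.48 [2.68 to 7.16] times. EC ratios of both genes were above 1 beyond counting error in each library. Blood Bgn was above 1 beyond counting error too at 12 weeks, at 2.40 [1.67 to 3.41] times. At 2 weeks blood Bgn was at 0.643 [0.147 to 2.23] times, and its interval in the healthy library was 0.758 to 1.18. Blood Prelp was at 1.47, 0 and 0.331 times, with intervals that held 1 in every library.

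**Figure D3:**
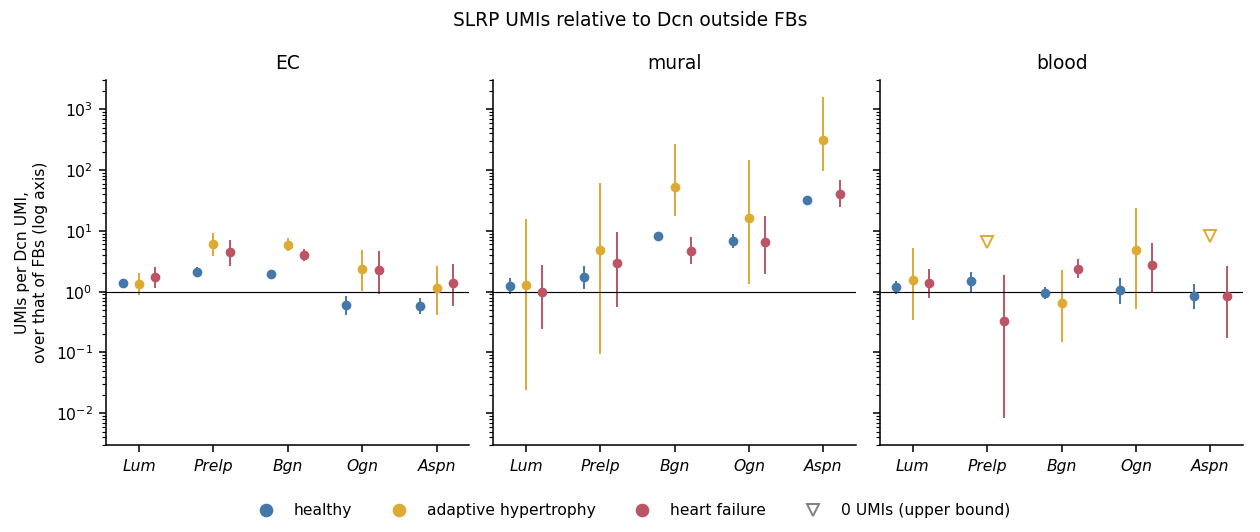
UMIs of Lum, Prelp, Bgn, Ogn and Aspn per Dcn UMI in ECs, mural and blood cells over the same ratio in FBs of that library (log axis; 95% intervals, counting error only; triangles are upper bounds for 0 UMIs). Mural Aspn stands at 32.1, 312 and 41.0, while Lum stays between 0.970 and 1.73 in all 3 classes.

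Across phases, FB biglycan was highest and decorin lowest at 2 weeks. Bgn in FBs was 1.72 times the healthy level at 2 weeks [1.62 to 1.81] and 1.25 times at 12 weeks [1.19 to 1.30]. Dcn was at 0.653 times at 2 weeks [0.626 to 0.680] and 1.09 times at 12 weeks [1.07 to 1.12]. Lum was at 1.24 [1.14 to 1.35] and 1.13 [1.06 to 1.19] times. These intervals hold counting error only, and the comparisons at 2 and 12 weeks share the healthy library.

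Of the sum of SLRP UMIs in FBs, Dcn made up 65.5%, 48.3% and 65.7% and Bgn 15.5%, 30.1% and 17.7% at 0, 2 and 12 weeks. The direction for Bgn and Dcn at 2 weeks was the same within each of these FB groups: Bgn was at 1.38 times in Postn+Thbs4 FBs, 1.51 in Wif1+Comp FBs, 2.01 in Cd248+Pi16 FBs and 1.49 in ungated FBs, and Dcn at 0.590, 0.550, 0.859 and 0.621 times. At 12 weeks the subsets differed in direction: Bgn was at 0.956, 0.944, 1.27 and 1.33 times and Dcn at 1.25, 0.783, 0.945 and 1.14 times in the same order, and in 7 Inmt+Gdf10 FBs at 0.499 and 0.702 times. Only 92 FBs were present at 2 weeks, and the share of mitochondrial UMIs in FBs was highest there. With cells over 10% mitochondrial UMIs removed, the 2-week ratios were 1.66 for Bgn and 0.710 for Dcn.

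The remaining members stood at or below their healthy level in pooled FBs. Ogn was at 0.710 [0.574 to 0.870] and 0.763 [0.666 to 0.870] times, Aspn at 0.704 [0.587 to 0.837] and 0.874 [0.785 to 0.971] times, and Prelp at 0.981 [0.832 to 1.15] and 0.866 [0.771 to 0.969] times at 2 and 12 weeks. Podn was at 0.454 [0.206 to 0.874] and 0.592 [0.387 to 0.874] times on 9 and 28 UMIs. Fmod was at 0.918 [0.633 to 1.29] times at 2 weeks and 0.473 [0.338 to 0.645] times at 12 weeks. Its 2-week ratio was 1.60 with FBs defined without matrix genes and 1.17 averaged over cells. Chad was at 0.332 [0.0895 to 0.865] and 0.0696 [0.00837 to 0.255] times.

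By a rule of 2-fold with at least 20 UMIs over both phases, 2 of 9 members (Podn and Chad) were lower at 2 weeks, where 14.2% of 9860 genes were lower and 9.89% higher. At 12 weeks 2 of 9 (Fmod and Chad) were lower, where 7.26% of 10088 genes were lower and 6.90% higher. No member was 2-fold higher at either time over all FBs. Within Cd248+Pi16 FBs, 17 cells at 2 weeks, Bgn was at 2.01 [1.77 to 2.28] times and Fmod at 7.24 [1.39 to 24.1] times, the latter on 3 UMIs. The median log2 ratio of the members was -0.49 at 2 weeks and -0.21 at 12 weeks, beside -0.01 and 0.02 over all genes. With FBs defined without matrix genes, 1 member at 2 weeks (Podn at 0.217) and 0 at 12 weeks passed, with Fmod at 0.752 and Chad under the limit of 20 UMIs. Chad at 2 weeks, on 4 UMIs, was at 0.716 when cells were averaged in place of pooled, at 0.0873 with at least 500 genes a cell and at 0.107 with cells over 10% mitochondrial UMIs removed.

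**Figure D4:**
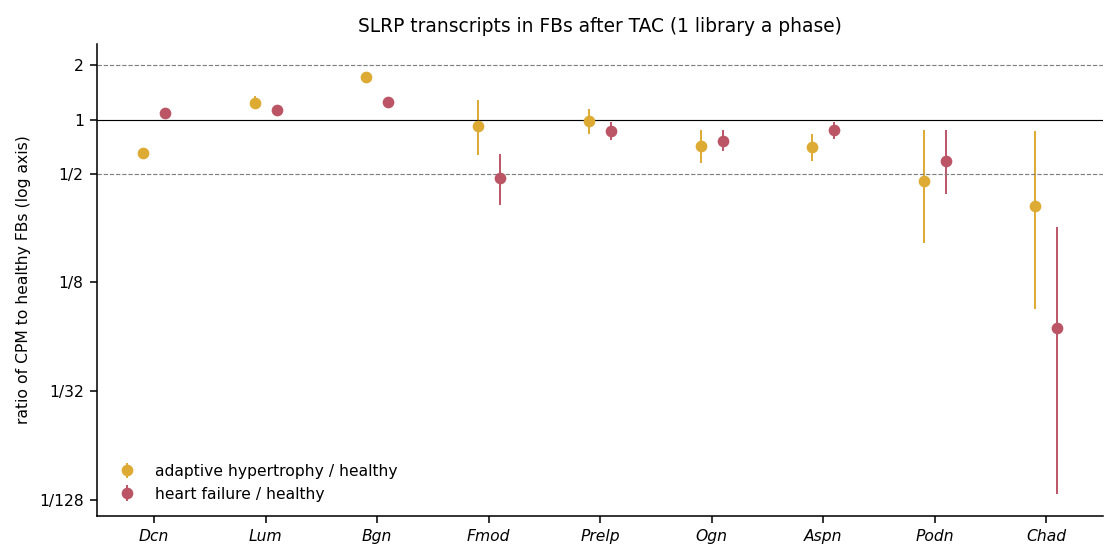
Level of each SLRP in FBs at 2 and 12 weeks over the healthy level (log axis, 95% intervals of counting error; the lines mark 2-fold). Bgn is above 1 at both times (1.72 and 1.25), Dcn is below 1 at 2 weeks only (0.653), and Chad at 12 weeks is the lowest at 0.0696.

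Outside FBs most SLRPs were lower at 2 weeks by the 2-fold rule. In ECs 6 of 6 members with enough UMIs were lower (6.44% of 10463 genes were lower and 4.24% higher), Dcn at 0.0598 [0.0480 to 0.0738] times and Bgn at 0.488 [0.428 to 0.556] times the healthy level. In mural cells 4 of 6 were lower (12.3% of 7773 genes were lower and 5.89% higher), Dcn, Lum, Prelp and Ogn, at 0.0614 to 0.264 times on 1 to 3 UMIs each at 2 weeks. Mural Bgn was at 1.03 [0.829 to 1.28] times and mural Aspn at 0.643 [0.474 to 0.856] times. In blood cells 5 of 6 were lower (13.7% of 7783 genes were lower and 10.7% higher), Dcn at 0.148 [0.0703 to 0.274] times. The share of FBs among cells was lowest in the same library, 4.12% against 31.1% and 22.9%, and its part in these ratios was not tested.

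At 12 weeks 0 of 6 members passed 2-fold in ECs (8.85% of 9505 genes were lower and 9.04% higher) and 0 of 6 in mural cells (20.7% of 7581 genes lower and 8.52% higher). In blood cells 2 were higher and 1 lower, beside 14.5% and 13.4% of 7876 genes. Blood Bgn was at 4.13 [2.92 to 5.78] times the healthy level, 158 against 38.3 CPM. Ogn at 2.55 [0.829 to 6.71] times and Prelp at 0.255 [0.00625 to 1.53] times had intervals that held 1.

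FBs were then divided by 4 pairs of genes: Postn+Thbs4, matricellular genes of activated FBs, Wif1+Comp, a Wnt inhibitor and a cartilage matrix gene, Inmt+Gdf10, and Cd248+Pi16, known from adventitial FBs. A cell needed at least 3 UMIs of a pair and at least 2 times the UMIs of every other pair. The gates held 78, 30 and 13 Postn+Thbs4 FBs, 58, 11 and 18 Wif1+Comp FBs, 16, 1 and 7 Inmt+Gdf10 FBs and 652, 17 and 58 Cd248+Pi16 FBs, and 408, 33 and 85 FBs passed none (ungated). The gate genes are no members, and each subset was compared with the ungated FBs by edgeR with the library as a block over 3010 genes, with all 9 members tested. The 4 comparisons share the ungated FBs. Chad passed the filter on low counts only through Wif1+Comp sums (715 and 118 CPM at 0 and 2 weeks). Its level in ungated FBs was at most 33.6 CPM.

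Wif1+Comp FBs of the healthy library stood apart with high fibromodulin, chondroadherin and PRELP. Fmod was at 1719 [1542 to 1909.7], 628 [359 to 1019] and 186 [98.8 to 317] CPM in them and at 147, 122 and 60.2 CPM in ungated FBs at 0, 2 and 12 weeks. Prelp was at 2777 [2551 to 3017], 863 [541 to 1306] and 1028 [804 to 1295] CPM against 635, 692 and 489 CPM. Chad was at 715 [603 to 842], 118 [24.3 to 344] and 14.3 [0.361 to 79.6] CPM against 33.6, 10.2 and 3.54 CPM. All 3 genes were higher in the gate than in ungated FBs in every library. For Prelp at 2 weeks this was less than counting error (1.25 times [0.734 to 2.04]), and Chad had 3 and 1 UMIs at 2 and 12 weeks. Other subsets came close after the healthy phase. Fmod at 12 weeks was at 152 CPM in Postn+Thbs4 FBs (11 UMIs), and Prelp at 2 weeks at 774 CPM in Cd248+Pi16 FBs (32 UMIs). Dcn was at 26089, 14356 and 20418 CPM against 14293, 8869 and 16342 CPM.

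In the test 4 of 9 members were higher in Wif1+Comp FBs, where 1.36% of all genes were higher and 2.16% lower. Chad was higher by 4.33 ± 0.42 (SE, n = 3 libraries, edgeR adjusted p = 5.99e-07), Fmod by 3.00 ± 0.41 (edgeR adjusted p = 6.60e-05), Prelp by 1.48 ± 0.29 (edgeR adjusted p = 0.00251) and Dcn by 0.66 ± 0.18 (edgeR adjusted p = 0.0359). Chad was in the test only because of its level in this gate, so its call, counted here, adds no support to that level. Podn was lower by 1.88 ± 0.74, which did not pass (edgeR adjusted p = 0.207), with 2, 0 and 3 UMIs in the gate. Without the healthy library 0 members were called, with Chad under the filter there, and without the library block 0 were called too. Dcn kept its call in 9 of 16 alternatives (adjusted p from 0.0109 to 0.659) and lost it without the 2-week library, with at least 500 genes a cell, with a gate of at least 2 UMIs, and without the filter on low counts or the minimum of cells. With DESeq2 2 were called, Fmod was not and Chad had no adjusted p, and over the alternatives the adjusted p-values ran from 4.59e-18 to 0.509 for Fmod and from 7.83e-07 to 0.610 for Prelp.

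Cd248+Pi16 FBs, 53.8% of healthy FBs, had little fibromodulin. Fmod was at 10.0 [6.28 to 15.2], 72.6 [15.0 to 212] and 5.77 [0.146 to 32.1] CPM, or 22, 3 and 1 UMIs. It was lower than in ungated FBs by 3.71 ± 0.59 on the log2 scale (edgeR adjusted p = 0.000668), at 0.0683, 0.595 and 0.0958 times in the 3 libraries. Chad had 2, 0 and 0 UMIs in them, against 40, 1 and 1 in ungated FBs, a healthy ratio of 0.0271 [0.00318 to 0.105] (edgeR adjusted p = 0.000263). These were 2 of 9 members, where 0.764% of all genes were lower and 0.432% higher. Aspn was at 762, 702 and 1147 CPM against 692, 407 and 421 CPM, higher in 3 of 3 libraries, but 0.78 ± 0.23 did not pass (edgeR adjusted p = 0.116). Without the healthy library, without the block or with DESeq2, 0 members were called, and Chad had no adjusted p in the first and the last.

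Postn+Thbs4 FBs passed the test against ungated FBs for Chad alone among the members (1 of 9 lower, where 1.23% of all genes were lower and 0.465% higher). They had 0 Chad UMIs in each library, at least 3.83-fold lower in the healthy heart with 3 counts set in place of the 0 (edgeR adjusted p = 0.0171), and this call was lost without the block and with a gate of at least 5 UMIs. With DESeq2, or without the healthy library, 0 members were called, and Chad had no adjusted p there. At an unadjusted p under 0.05 there were 4 members, Chad among them. Ogn was at 388, 319.8 and 27.7 CPM against 611, 356 and 397 CPM (edgeR adjusted p = 0.320), with 2 UMIs in 13 cells at 12 weeks. Bgn was at 4270.2, 5893 and 4081 CPM against 3419, 5106 and 4554 CPM, a log2 difference of 0.08 ± 0.17 (edgeR adjusted p = 1.000).

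In Inmt+Gdf10 FBs 0 of 9 members passed (0.233% of all genes were higher and 0.0997% lower), with 3 at an unadjusted p under 0.05 and 0 with DESeq2. This comparison rested on 16 cells of the healthy library, since the other sums were under 10 cells, and the lone sum was assumed to vary like the other groups. Its Ogn level was 874 [642 to 1162] CPM against 611 CPM, and its Aspn level 260.3 [142 to 437] CPM against 692 CPM (edgeR adjusted p = 0.754 and 0.394).

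**Figure D5:**
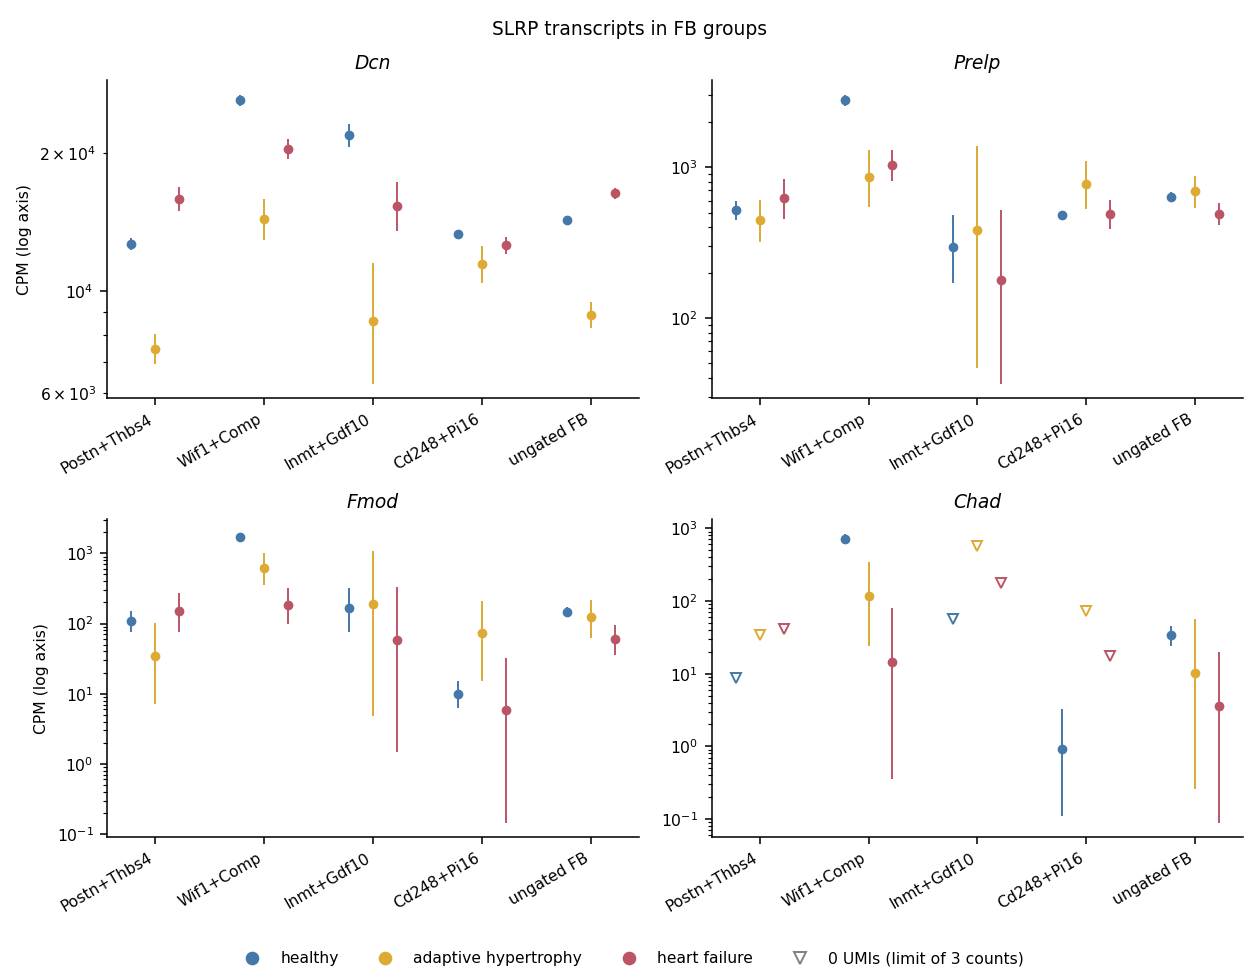
Level of Dcn, Prelp, Fmod and Chad (CPM, log axis) in the 4 gated FB subsets and ungated FBs at each phase with 95% exact Poisson intervals; triangles are the limit of 3 counts for 0 UMIs. Fmod, Prelp and Chad are highest in healthy Wif1+Comp FBs (1719, 2777 and 715 CPM), and Fmod is lowest in Cd248+Pi16 FBs at 0 and 12 weeks (10.0 and 5.77 CPM).

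The ungated FBs held epicardial markers that the gated subsets mostly lacked: the 6 genes summed to 137, 336 and 124 CPM in ungated FBs, to 0 in Wif1+Comp FBs and in Postn+Thbs4 FBs, and to 4.10, 0 and 5.77 CPM in Cd248+Pi16 FBs. With ungated FBs that had a UMI of these genes left out, each subset comparison called as many members as before. The 7 chondrocyte and tendon genes summed to 1118, 431 and 999 CPM in Wif1+Comp FBs and to 485, 407 and 1059 CPM in ungated FBs. Matn1 was at 0 in both groups in all libraries, Col2a1 was at 0 in healthy and 12-week Wif1+Comp FBs, and their part in the result was not tested. At 2 weeks the Wif1+Comp FBs had a median of 1171 UMIs with 12.6% mitochondrial, against 2992 with 2.38% in the healthy library.

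Within the healthy library, chondroadherin came from few cells. A Chad UMI was seen in 24 of 1212 FBs, and 10 cells held 82.8% of the 186 UMIs, with 29 in the highest. Of these 24 cells 18 were in the Wif1+Comp gate, 21 had a Comp UMI and 12 a Wif1 UMI. Fmod UMIs were found in 19 of the 24 (79.2%) and in 6.57% of the FBs without Chad, although the Chad cells were shallower (median 2131 against 3013 UMIs). Fmod itself was in 97 FBs, 35 of them in the gate, and 10 cells held 46.5% of its 589 UMIs. At 2 and 12 weeks 2 and 2 FBs had a Chad UMI and 17 and 19 a Fmod UMI.

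A division of the healthy gate by its own genes was made after these values were seen. The 29 cells with more Comp than Wif1 UMIs had Fmod at 2657 [2343 to 3002] CPM and Prelp at 3873 [3491 to 4284] CPM, and the 28 cells with more Wif1 had 866 [694 to 1066] and 1682 [1439 to 1954] CPM. Chad was at 814 [644 to 1014] and 639 [493 to 815] CPM and Dcn at 25079 and 27385 CPM. Fmod and Prelp were higher on the Comp side beyond counting error, and Chad was not. All of these cells come from 1 library, so this is a description.

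Between phases, Fmod in the Wif1+Comp gate was at 0.365 [0.206 to 0.601] and 0.108 [0.0569 to 0.187] times the healthy level at 2 and 12 weeks. Chad was at 0.165 [0.0335 to 0.490] and 0.0200 [0.000502 to 0.113] times. The gate itself held 58 of 1212, 11 of 92 and 18 of 181 FBs. Its cells with more Comp than Wif1 UMIs numbered 29, 10 and 10, and those with more Wif1 28, 1 and 7. The make-up of the gate thus changed with phase, and the part of this in the ratios was not tested. In the cells with more Comp, Fmod was at 2657, 828 and 177 CPM. In ungated FBs Fmod was at 0.831 and 0.410 times.

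Genes that build on, bind or cut SLRPs were followed by 7 lists. Over all genes tested, 19.8% were higher and 18.5% lower in FBs than in ECs. These shares were 15.3% and 18.0% against mural cells and 25.3% and 21.9% against blood cells. Of the 15 fibrillar and fibril-associated collagens, 10 were tested between classes, leaving out the 2 used to define FBs, and 10 were higher in FBs than in ECs, mural and blood cells (median log2 fold changes 6.46, 3.86 and 5.89). Col3a1 was higher by 7.41 ± 0.57 than in ECs. Of 10 other genes of the family 3 were tested, namely Tsku, Chadl and Ecm2. All 3 were higher in FBs than in each of these classes, Ecm2 by only 1.28 ± 0.25 against ECs. Tsku was at 36.7, 31.0 and 32.5 CPM in FBs and at most 7.80 CPM in ECs, mural and blood cells. Among these classes only FB sums could carry it past the filter on low counts, so its higher calls were all but fixed. Chadl rested on 53, 3 and 6 FB UMIs, against 3, 2 and 1 in mural cells. The enzymes of chondroitin and dermatan sulfate chains, which decorin and biglycan carry, were higher in FBs than in ECs for 7 of 9 tested of 20, for 8 of 9 against mural cells and for 6 of 9 against blood cells. The chondroitin polymerizing factor Chpf was higher than in ECs by 5.95 ± 0.46 and the dermatan sulfate epimerase Dse by 5.29 ± 0.55. Of the 6 keratan sulfate enzymes 2 were tested against ECs, with B4galt1 higher by 0.76 ± 0.25 and B4galt4 lower by 2.05 ± 0.31 in FBs, against mural cells 0 of 2 passed, and against blood cells B4galt4 was higher by 1.62 ± 0.48.

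The 2 large proteoglycans tested of 7, Vcan and Prg4, were higher in FBs than in each of the 3 classes. Among 10 receptors and growth factors that SLRPs bind, 3 of 6 tested were higher and 1 lower in FBs than in ECs, with the endocytic receptor Lrp1 higher by 6.50 ± 0.44 and Tgfb1 lower by 0.95 ± 0.25. Against mural cells 1 of 6 was higher (Lrp1), near the 15.3% of all genes higher there, and against blood cells 4 were higher and 2 lower. Of 11 genes of processing and cleavage (10 proteases and the enhancer Pcolce, left out because it defines FBs) 7 were tested, and 5 were higher and 1 lower in FBs than in ECs, 5 higher and 2 lower than in mural cells, and 7 higher than in blood cells. Bmp1, which removes the propeptide of decorin and biglycan, was higher in FBs than in ECs by 2.93 ± 0.27, and the aggrecanase Adamts1 was lower by 1.67 ± 0.26.

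Between FB subsets few genes of these lists passed. Prg4, lubricin, was at 2081, 78.4 and 371 CPM in Wif1+Comp FBs against 195, 81.4 and 163 CPM in ungated FBs, higher by 2.55 ± 0.39 (edgeR adjusted p = 0.000222) but not in the 2-week library. Adamts5 was at 64.6, 39.2 and 42.8 CPM against 345, 91.5 and 103 CPM, lower by 1.94 ± 0.44 (edgeR adjusted p = 0.00903) and in 3 of 3 libraries. Mmp3 was at 28.3, 145 and 57.7 CPM in Cd248+Pi16 FBs against 109, 10.2 and 305 CPM, lower by 1.82 ± 0.42 (edgeR adjusted p = 0.0269), while the 2-week library went the other way on 6 against 1 UMIs. No collagen of the 11 tested passed in any of the 4 comparisons.

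Over phases, most collagens of FBs were higher at 2 weeks. Of the 12 collagens with enough UMIs 7 were past 2-fold higher and 2 lower than healthy, with a median log2 ratio of 1.14, beside -0.49 for the SLRPs and -0.01 over all genes, of which 9.89% were higher and 14.2% lower. Col16a1 was at 5.53 [4.21 to 7.21] times, Col12a1 at 4.48 [3.04 to 6.47], Col14a1 at 3.16 [2.69 to 3.69] and Col3a1 at 2.51 [2.38 to 2.64] times. At 12 weeks 0 were higher and 2 lower, where 6.90% of all genes were higher and 7.26% lower, with a median of -0.48 and Col3a1 at 0.650 [0.609 to 0.693] times. The 2 lower at both times were Col11a1 and Col11a2, on 1 and 0 UMIs at 2 weeks and 2 and 1 UMIs at 12 weeks, with intervals that held 1.

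The proteases were lower at 2 weeks for 4 of 7, with Adamts5 at 0.323 [0.223 to 0.453] times, Mmp3 at 0.448 [0.178 to 0.938] times, Adamts4 at 0.439 [0.141 to 1.04] times and Adamts1 at 0.479 [0.298 to 0.731] times. At 12 weeks Adamts5 was at 0.366 [0.293 to 0.452] times and Mmp3 at 3.25 [2.59 to 4.06] times. Over all genes 14.2% were lower and 9.89% higher at 2 weeks, and 7.26% and 6.90% at 12 weeks. Of 17 chondroitin and dermatan sulfate enzymes 4 were higher and 1 lower at 2 weeks and 1 higher at 12 weeks, among them Xylt1, which starts the chain, at 2.42 [1.24 to 4.37] times at 2 weeks and Chst11 at 3.24 [1.48 to 6.73] times at 12 weeks. Prg4 was at 0.243 [0.132 to 0.410] times at 2 weeks. Of the 5 other family genes with enough UMIs 0 passed 2-fold, with Ecm2 at 0.934 and 1.41 times, and Tlr2 alone of 8 receptors and growth factors was past 2-fold at each time, on 4 and 13 UMIs.

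Members differed in their pattern over the 13 FB groups of subset and library with at least 10 cells. The Pearson correlation of log2 CPM between Chad and Prelp was 0.85, between Chad and Fmod 0.82 and between Fmod and Prelp 0.71. Ogn and Podn had 0.66, Fmod and Podn -0.56, and Dcn and Lum, neighbors in the genome, 0.08. Among 3361 genes with at least 200 FB UMIs, leaving out the SLRP members and the genes that define classes and subsets, the closest in pattern was Fth1 for Dcn (0.91), Zbtb4 for Lum (0.88), Ltbp3 for Bgn (0.90), 1500015O10Rik for Fmod (0.87), Msx1 for Prelp (0.84), Cpne3 for Ogn (0.94), Ugp2 for Aspn (0.85) and Ccdc80 for Chad (0.82). These groups come from 3 libraries and share depth and preparation, and the values are descriptions. Chad had 144 and 40 UMIs in healthy Wif1+Comp and ungated FBs and at most 3 in any other group. Its correlations thus rest largely on few groups.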

How the data were processed

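Non-CMs of 3 ventricular suspensions were profiled with the Chromium 3' v2 chemistry, 1 library per phase. The authors made the deposited count tables (UMI counts per gene and cell, not normalized) with Cell Ranger 2.0.0 on mm10, per the submitters' processing notes. Barcodes with fewer than 200 genes were left out. A cell took the class of the marker list with at least 3 UMIs and at least 2 times those of every other list. Other cells were left without a class, and no doublet caller was run.

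Levels are pooled CPM with 95% exact Poisson intervals, shares have Clopper-Pearson intervals, and ratios between phases are conditional binomial. Intervals and floors cover counting error only, and FB levels rest on 257924 to 3982629 UMIs a library. Sums of at least 10 cells per library and class or subset were tested with edgeR 4.0.16 (quasi-likelihood, TMM, filterByExpr) in R 4.3.3, with DESeq2 1.42.0 as an alternative. Figures used matplotlib 3.10.9 and intervals scipy 1.17.1. Scripts were tested on simulated data.

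The library was a block because classes of a library share 1 suspension: deviations from group means correlated at 0.19 to 0.44 within libraries and at -0.30 to -0.02 between them. With 3 libraries of different phases, p-values measure the spread between libraries, which may be technical. All 9 members are named, other genes by list, where they passed the test or the 2-fold rule. Members and lists were chosen with earlier results of these data known.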

Additional observations from a re-analysis of the deposited data

How the results depend on the processing

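All 8 members tested stayed higher in FBs than in ECs and blood cells under each alternative in which they could be tested. In the main fit Fmod and Podn passed the filter on low counts through FB sums only, and Prelp also needed FB sums to pass. Of 1217 alternative log2 fold changes of single members 1159 kept their side of the threshold, 41 lost the call and 13 gained it. Another 4 reversed in sign with a call in the main or the alternative fit. A change of sign without a call in either fit counts among the 1159. The cause of the changes below was not tested.

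With FBs defined without matrix genes, members called numbered 5 for mural cells against ECs (3 in the report), 1 for ECs against blood cells (2), and 1 for Cd248+Pi16 FBs (2). Members past 2-fold numbered 1 at 2 weeks and 0 at 12 weeks in FBs (2 and 2) and 2 in mural cells at 12 weeks (0). Dcn and Lum reversed to 1.80 and 1.59 in mural cells against ECs and to 2.59 and 2.08 against blood cells, and Wif1+Comp and Inmt+Gdf10 FBs could not be fitted. Without a filter on low counts 6 members were called for mural cells against ECs and 2 for Postn+Thbs4 FBs (1). With DESeq2 the calls were 1 for ECs against blood cells, 0 for Postn+Thbs4, 2 for Wif1+Comp (4) and 0 for Cd248+Pi16 FBs. Without the replicate block, which ignores the shared suspension, they were 1, 0, 0 and 0. With cells over 10% mitochondrial UMIs removed, 2 were called for mural against blood cells (4). Without a minimum of cells the calls were 0 for Postn+Thbs4, 2 for Wif1+Comp and 1 for Cd248+Pi16 FBs, a gate of at least 2 UMIs gave 0, 2 and 1 and 1 for Inmt+Gdf10 FBs (0), and a gate of at least 5 gave 0 for Postn+Thbs4 FBs.

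Leaving out each library gave 2 to 5 calls for mural cells against ECs, 1 to 2 for ECs against blood cells, 2 to 4 for mural against blood cells, 0 to 1 for Postn+Thbs4, 0 to 5 for Wif1+Comp and 0 to 2 for Cd248+Pi16 FBs, each lowest without the healthy library. Averaging cells left 1 member past 2-fold in FBs at each time. Within Postn+Thbs4 FBs 1 passed at each time and Fmod reversed to 1.41 at 12 weeks, and within Cd248+Pi16 FBs 2 passed at 2 weeks, both higher (Bgn and Fmod), and 0 at 12 weeks. The median share of FBs with a UMI of a member, 35.2% at 1000 UMIs, was 23.7% at 500 UMIs and 60.2% unthinned.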

Other observations

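Neural-marker cells, a class of 41, 15 and 12 cells at 0, 2 and 12 weeks, carried biglycan at 556 [408 to 739], 315 [144 to 598] and 735 [420.1 to 1194] CPM, on 47, 9 and 16 UMIs. Dcn in the same cells was at 189, 35.0 and 138 CPM, and Bgn made up 68.1%, 81.8% and 76.2% of their SLRP UMIs against 15.5%, 30.1% and 17.7% in FBs. These cells entered no comparison, and the values are descriptions.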
